A study of Mus musculus with 6 samples.

Results

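Aqp1 and Aqp5 encode aquaporin-1 and aquaporin-5, channels that let water cross the plasma membrane along an osmotic gradient. Both genes were taken by name from the 16494 genes of a single-cell RNA-sequencing (scRNA-Seq) table, and they make up 2 of the 8 aquaporin genes that the table lists out of 12 in the mouse family. The pair was chosen by its measured levels across cell classes and genotypes, in these same mice, so the levels of Aqp1 and Aqp5 by cell class and by genotype are given as a description, with no test. The cells came from lower abdominal muscle (LAM) tissue of male FVB/N mice aged 9 to 10 weeks, 3 labelled WT, littermates that served as controls, and 3 labelled Arom with scrotal hernia. The Arom animals are Aromhum mice, which carry the human aromatase gene CYP19A1 under its own promoters, so that androgen is turned into estrogen in the tissues that read those promoters. CYP19A1 had 767, 792 and 784 UMIs (unique molecular identifiers, the count of captured transcripts) in the 3 Arom mice and 0 in each WT mouse, in which a count of 0 leaves room for up to 3 UMIs. The mouse was the replicate throughout, and mice are called WT 1 to WT 3 and Arom 1 to Arom 3.

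Aquaporins are small membrane proteins that assemble as tetramers, with a pore in each subunit. Aqp1 is the water channel of red blood cells, of the proximal tubule of the kidney and of the endothelium of continuous capillaries, the vessels that supply muscle. Aqp5 is best known from secretory epithelium such as the salivary, lacrimal and sweat glands and the airway, and fibroblasts are not its textbook home. Aqp7 belongs to the aquaglyceroporins, which pass glycerol besides water, and is known from the capillaries of fat and muscle.

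After barcodes under 200 genes or 1000 UMIs were left out, 59227 cells remained, 7505 to 9583 per WT mouse and 8446 to 12999 per Arom mouse, with a median depth per mouse of 5621 to 9361 UMIs. Of 63175 barcode sequences, 471 occurred in more than 1 mouse. Cells were clustered without Aqp1 and Aqp5, and clusters were named from marker genes into 20 named classes. Levels are UMIs of a gene per 1000000 UMIs of the class in a mouse (CPM), given where a mouse had at least 20 cells of the class. Clusters that mixed markers of endothelial cells or fibroblasts with those of another type held 5433 cells and were kept out of the named classes. Arom 3 stood apart from Arom 1 and Arom 2 in its fibroblast classes, with 0.205% Mmp3-high fibroblasts among its fibroblast-like cells against 14.6% and 18.4%, and WT 2 had the largest share of cells above 5% mitochondrial UMIs, at 64.7% against 26.6% to 39.0% in the other mice, so the tests below are given with and without each mouse.

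The regions before both starts are shown because the mice differ in estrogen production and the cells that held Aqp5 were marked by an estrogen receptor. In the RefSeq annotation of build GRCm38.p6, Aqp1 lies on the plus strand of chromosome 6 (chr6:55336299-55348555) and Aqp5 on the plus strand of chromosome 15 (chr15:99591028-99594829). The 250 bases before the Aqp1 start, at chr6:55336049-55336298, are printed with CACCC, the box read by Krüppel-like factors, in capitals on either strand (GGGTG on the other), and 30 bases upstream of the RefSeq start of Aqp5, at chr15:99590926-99590955, with GGTCA, an arm of the estrogen response element, in capitals.
Aqp1: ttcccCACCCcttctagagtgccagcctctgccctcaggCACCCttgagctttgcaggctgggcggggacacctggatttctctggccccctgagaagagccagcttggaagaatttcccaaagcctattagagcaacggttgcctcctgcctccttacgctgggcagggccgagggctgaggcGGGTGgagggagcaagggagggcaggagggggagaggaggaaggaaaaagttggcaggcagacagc
Aqp5: cactgccgcgtgGGTCAcgtggcccgggcg
The CACCC box occurred 3 times in the Aqp1 window of 300 bases around the start and in 57.5% of all 32851 such windows, and it occurred once in that of Aqp5, 43 bases before the start. The arm (GGTCA, or TGACC on the other strand) stood 90 bases before the RefSeq start of Aqp5 and occurred in 40.5% of all windows. It lay downstream of the starts of 2 GENCODE transcripts of Aqp5 that begin further upstream. It had 0 matches in the Aqp1 window. The whole palindrome GGTCANNNTGACC was in neither window and in 0.0700% of all windows. These matches describe letters only.

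Aqp1 was an endothelial gene in this tissue, and its level fell into 4 steps along the vessel classes. Capillary cells, marked by Gpihbp1 (2133 CPM), the protein that holds lipoprotein lipase on the capillary wall, had 3098 to 4167 CPM of Aqp1 in WT mice and 2838 to 3842 CPM in Arom mice. Venular cells, marked by the adhesion molecule Selp (7550 CPM), had 2375 to 2513 CPM in WT mice and 2179 to 2328 CPM in Arom mice. Lymphatic endothelial cells, marked by the transcription factor Prox1, had 493, 587 and 529 CPM in WT 1 to 3 and 455, 445 and 491 CPM in Arom 1 to 3. Arterial cells, marked by the gap junction gene Gja5, had the least, 158, 328 and 288 CPM in WT mice and 147, 75.6 and 200 CPM in Arom mice. The order capillary, venular, lymphatic, arterial held in 6 of 6 mice, and the ranges over mice of these 4 classes did not overlap, although the arterial range met that of the next named class, myonuclei, at 56.1 to 242 CPM. Capillary cells were 10.3 to 37.5 times as high as arterial cells of the same mouse.

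**Figure D1:**
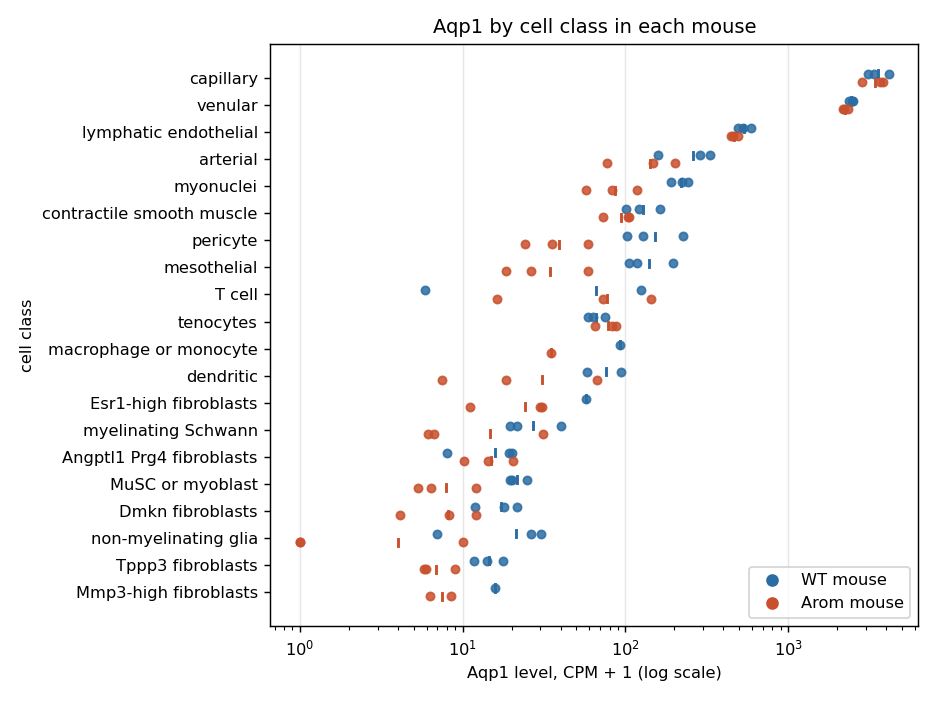
Aqp1 level of each mouse in each named cell class, as CPM plus 1 on a log axis, with WT mice in blue, Arom mice in orange and short bars at the genotype means. Capillary and venular cells lie at 2179 to 4167 CPM, and the named classes outside the endothelium reach at most 242 CPM.

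The step between vessels was also seen cell by cell. A UMI of Aqp1 was found in 91.4% of 8121 capillary cells (83.5% to 93.7% per mouse), in 99.4% of 3119 venular cells (98.7% to 100% per mouse) and in 23.5% of 1990 arterial cells (9.62% to 35.3% per mouse). The median depth of these classes was 3001, 6973 and 5584 UMIs. With every cell thinned to 1000 UMIs, the shares were 84.6%, 85.2% and 10.9%, so the capillary and venular shares lay close together and the arterial share stayed far lower. Within the arterial class, the tenth of cells with the most Aqp1 held 89.5% of its UMIs, against 33.1% in capillary and 27.4% in venular cells. A further endothelial subcluster of 516 cells, led by Pgf, Apln and Kit and left without a name, had 1400 ± 254 CPM (SD, n = 6 mice).

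Between genotypes, the Aqp1 means of a vessel class lay closest, as a ratio, in capillary and farthest apart in arterial cells. In capillary cells the genotype means were 3550 ± 553 CPM in WT and 3442 ± 532 CPM in Arom mice (SD, n = 3 each), and the mice overlapped. In venular cells the means were 2450 ± 70.1 and 2241 ± 77.7 CPM, and the 3 Arom mice lay below the 3 WT mice, which was so for 5.78% of the genes in that class. In lymphatic cells the means were 536 ± 47.6 and 463 ± 24.1 CPM, again with no overlap, which was so for 6.50% of genes there. In arterial cells the means were 258 ± 89.1 and 141 ± 62.6 CPM, a ratio of 0.546, and the mice overlapped. A UMI was found in 17%, 29.1% and 35.3% of the arterial cells of WT 1 to 3 and in 15%, 9.62% and 18.4% of those of Arom 1 to 3, and the clusters of this class differed by genotype, with the cell numbers given beside Aqp7. The arterial ratio is thus one of unlike sets of clusters, and the part of this make-up in it was not tested. The venular class was not made of the same clusters in both genotypes. Its subcluster led by Glycam1, Tacr1 and Tnfsf8 had at least 20 cells in Arom mice alone, where Aqp1 stood at 2233, 2186 and 1696 CPM. The subcluster led by Selp and Sele, present in all mice, had 2420 ± 118 CPM in WT and 2354 ± 92.2 CPM in Arom mice, with overlap. The subcluster led by Olr1 and Nts had 2638 ± 124 and 2243 ± 128 CPM, with no overlap, which was so for 3.83% of genes there, on 28 to 213 cells per mouse.

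For the sums that were tested, CPM over tested genes means UMIs per 1000000 UMIs of the genes tested in the class. Over all blood endothelial cells summed per mouse, Aqp1 was at 2882, 2515 and 2188 CPM over tested genes in WT 1 to 3. It was at 2171, 2003 and 2183 in Arom 1 to 3, so the 3 Arom mice lay just below the lowest WT mouse. The log2 difference, Arom minus WT, was -0.25 (SE 0.14), and it ranged from -0.34 to -0.12 when each mouse was left out in turn. An equal position, lower without overlap, was found for 18.8% of the 11994 genes tested in these cells. The make-up of the endothelium moved in the same direction: capillary cells were 65.8%, 71.7% and 64.1% of blood endothelial cells in WT 1 to 3 and 32.3%, 45.2% and 41.9% in Arom 1 to 3, while venular cells were 8.22% to 16.5% and 30.8% to 46.0%. The part of this shift in the endothelial difference was not tested.

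Over all captured cells of a mouse, Aqp1 was far lower in Arom mice. WT 1 to 3 had 772, 898 and 1046 CPM and Arom 1 to 3 had 274, 193 and 443 CPM, with no overlap, which was so for 21.2% of all genes. The mean of the Arom mice was 0.335 of that of the WT mice. Capillary and venular cells gave 14.9%, 16.7% and 21.2% of all UMIs in WT mice and 7.0%, 4.47% and 10.3% in Arom mice. When the level of each class in a mouse was weighted by the mean UMI shares of the WT mice, Aqp1 stood at 986, 899 and 862 CPM in WT mice and 786, 682 and 872 CPM in Arom mice, a ratio of 0.852 with overlap. Cells were counted after dissociation, so in whole-sample sums fewer cells of a type, fewer recovered and less RNA per cell cannot be told apart.

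**Figure D2:**
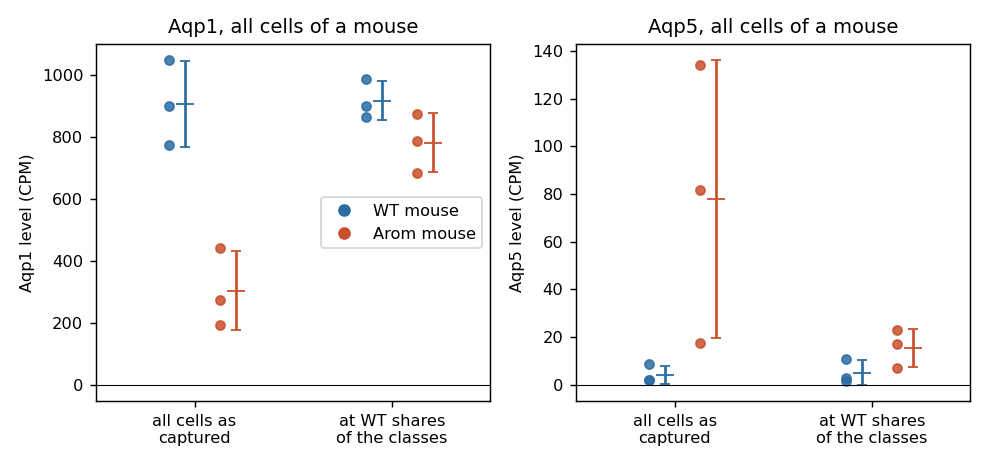
Aqp1 (left) and Aqp5 (right) in CPM over all cells of each mouse, as captured and after the class levels were weighted by the WT shares of the classes, with points for mice and bars for mean ± SD (n = 3). The genotypes are apart as captured, at 905 ± 137 against 303 ± 127 CPM for Aqp1, and overlap for both genes at the WT shares.

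In the named classes outside the endothelium Aqp1 was low, and most of them were lower in Arom mice. The mixed clusters, kept out of these classes for their endothelial or fibroblast markers, held 75666 of the 275002 Aqp1 UMIs. They had 1227 to 1257 CPM in WT and 721 to 974 CPM in Arom mice. Among them were smooth muscle or pericyte clusters of 802, 772, 644 and 486 cells. The named classes kept 653 pericytes and 1649 contractile smooth muscle cells. Since clusters with endothelial markers were kept out, a low Aqp1 level in the remaining classes was in part set by that rule. Of 15 named classes with at least 20 cells in all 6 mice, the Arom mean was lower in 14, and the Arom mice lay below the WT mice without overlap in 7, which include the venular and lymphatic classes above. Myonuclei had 190 to 242 CPM in WT and 56.1 to 118 CPM in Arom mice. Mesothelial cells, the lining of the abdominal cavity, had 104 to 196 and 17.5 to 57.9 CPM. Pericytes, the mural cells of capillaries, had 102, 127 and 225 CPM in WT mice and 23.2, 34.3 and 57.6 CPM in Arom mice, on 9 to 34 UMIs per mouse. This class was made of different clusters by genotype: its subcluster with Serpina1b and Plac8 among its leading genes had at least 20 cells only in Arom 1 and Arom 2, at 16.3 and 33.6 CPM, and in that led by G0s2, Kcnj8 and Plxdc1 the genotypes overlapped, at 108, 127 and 225 CPM in WT mice and 150 and 92.1 CPM in Arom 1 and Arom 3. Muscle stem cells and Tppp3 fibroblasts made up the 7, at means of 20.5 and 13.6 CPM in WT mice and 6.94 and 5.90 CPM in Arom mice. Such positions held for 4.99% of genes in myonuclei, 13.7% in mesothelial cells, 15.3% in pericytes, 8.43% in muscle stem cells and 10.9% in Tppp3 fibroblasts.

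Endothelial RNA in these classes moved the same way. The summed level of 7 endothelial markers (Pecam1, Cdh5, Cldn5, Emcn, Egfl7, Tie1, Esam) was 385 to 625 CPM in WT and 130 to 260 CPM in Arom myonuclei. It was 327 to 623 and 143 to 298 CPM in mesothelial cells, 767 to 928 and 384 to 634 CPM in pericytes, and 28.9 to 50.2 and 13.7 to 25.8 CPM in Tppp3 fibroblasts. In muscle stem cells, at 44.1 to 78.2 and 28.7 to 54.7 CPM, the genotypes overlapped. The part of endothelial RNA in the Aqp1 level of these classes was not tested. In the capillary class itself the 7 markers summed to 7735 to 8183 CPM in WT and 7383 to 7896 CPM in Arom mice. Red blood cells also carry Aqp1: the summed level of 5 red blood cell genes in the table (Hba-a1, Hba-a2, Hbb-bs, Hbb-bt, Alas2) was 70.8 to 668 CPM in WT and 64.1 to 825 CPM in Arom capillary cells, and its part was not tested.

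Aqp5, by contrast, was a fibroblast gene here, and most of its UMIs came from a class with more cells in each Arom mouse than in any WT mouse. The cells kept held 26308 Aqp5 UMIs in 2856 cells, and 85.9% of these UMIs were in the Esr1-high fibroblasts, a class set by Esr1, the gene for estrogen receptor α, and by Moxd1, Emb, Ramp3, Pnoc and 5 further markers. Pdgfra, the receptor that marks fibro-adipogenic progenitors, stood at 406 CPM in this class and Pecam1 at 4.33 CPM. In this clustering the class held 27, 5 and 4 cells in WT 1 to 3, up to 0.289% of the cells of a mouse. It held 1402, 1818 and 534 cells in Arom 1 to 3, or 12.4%, 14.0% and 6.32%. The low WT numbers depended on the clustering. With clusters cut finer (resolution 1.2), WT 1 to 3 had 420, 190 and 143 cells of the class and Arom 1 to 3 had 1323, 1485 and 697. With cells grouped by runs of columns, WT mice had 483, 258 and 172 and Arom mice 1361, 1748 and 724.

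In the Esr1-high fibroblasts of Arom mice, Aqp5 was at 291, 470 and 95.6 CPM. The few WT cells of the class held 3, 6 and 12 UMIs, which is 7.33, 42.2 and 113 CPM, so the genotypes overlapped, with WT 3, on 4 cells, above Arom 3. The fitted log2 difference was 3.05 (SE 0.81), and 2.19 to 4.13 with each mouse left out in turn. How many WT cells join the class depended on the clustering, and so did this value. With clusters cut finer (resolution 1.2), the class held 420, 190 and 143 WT cells at 18.6, 212 and 51.4 CPM, against 278, 494 and 95.6 CPM in Arom mice, and the log2 difference was 1.65. With clusters cut coarser (resolution 0.4), it was 4.08.

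Over all fibroblast-like cells, Aqp5 was at 3.4, 24.7 and 6.11 CPM over tested genes in WT 1 to 3. It was at 130, 198 and 31.1 in Arom 1 to 3. The genotypes did not overlap, as for 22.6% of the 13874 genes tested there in the same direction; Arom 3 came closest to the WT mice. The log2 difference was 3.43 (SE 0.91), with 2.85 to 4.67 when each mouse was left out in turn. The Esr1-high fibroblasts were 0.210% to 0.777% of the fibroblast-like cells of WT mice and 29.3%, 27.2% and 15.7% of those of Arom 1 to 3. The WT share moved with the clustering: the 27, 5 and 4 WT cells at resolution 0.8 were 57, 6 and 6 at resolution 0.4 but became 420, 190 and 143 at resolution 1.2 and 483, 258 and 172 with cells grouped by the runs of columns in the table, where Arom mice had 1323, 1485 and 697 and then 1361, 1748 and 724 cells. Over all cells of a mouse, Aqp5 was at 1.84, 8.58 and 1.92 CPM in WT and 81.7, 134 and 17.5 CPM in Arom mice, 18.9 times as high in the mean, and 3.11 times with overlap once the classes of this clustering were weighted by the WT shares.

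**Figure D3:**
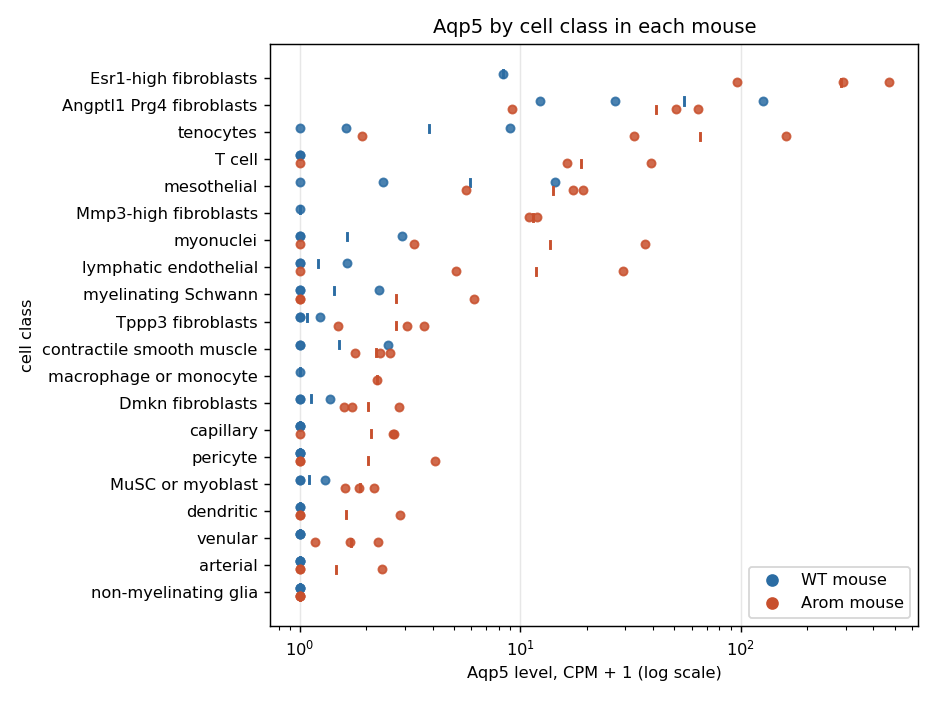
Aqp5 level of each mouse in each named cell class, as CPM plus 1 on a log axis, with WT mice in blue, Arom mice in orange and short bars at the genotype means. Esr1-high fibroblasts of the Arom mice lie at 95.6 to 470 CPM, WT mice reach their highest value, 126 CPM, in the Angptl1 Prg4 fibroblasts, and apart from tenocytes the other classes reach at most 38.3 CPM.

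The Esr1-high fibroblasts fell into 2 subclusters that differed in Aqp5. The subcluster led by Pnoc, Nppc and Wnt4, which encode the nociceptin precursor, C-type natriuretic peptide and a Wnt ligand, had 655, 847 and 158 CPM in Arom 1 to 3. The subcluster led by Uts2, Ctla2a and Ramp3 had 103, 206 and 30.7 CPM, the lower value in each of the 3 Arom mice. Esr1 stood at 241, 262 and 384 CPM in the former and 127, 147 and 234 CPM in the latter. Pgr, the progesterone receptor and an estrogen target, stood at 165, 247 and 128 CPM against 108, 173 and 106 CPM, and Greb1, another estrogen target, at 163, 247 and 186 CPM against 112, 170 and 132 CPM. Arom 3 thus had the highest Esr1 and the lowest Aqp5 of the Arom mice in both subclusters. The subclusters were set on the same cells, so these are descriptions. Aqp1 went the other way at a low level, with 15.2, 17 and 8.04 CPM in the Pnoc subcluster and 36.2, 39.0 and 12.4 CPM in the Uts2 subcluster.

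**Figure D4:**
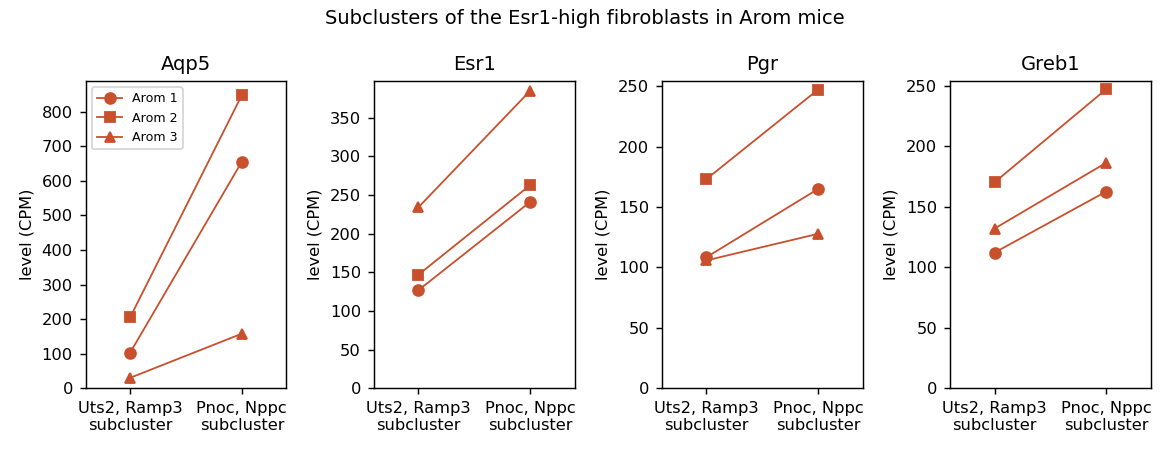
Levels in CPM of Aqp5, Esr1, Pgr and Greb1 in the 2 subclusters of the Esr1-high fibroblasts, with lines joining the values of each Arom mouse. All 4 genes are higher in the Pnoc, Nppc subcluster in each mouse, and Arom 3 is lowest for Aqp5, at 30.7 and 158 CPM, and highest for Esr1, at 234 and 384 CPM.

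From cell to cell Aqp5 was uneven even inside this class. A UMI was found in 45.1%, 62.1% and 36.7% of the cells of Arom 1 to 3 and in 7.41% of the 27 cells of WT 1. Over all 3790 cells the share was 51.8% at a median depth of 16461 UMIs, and 17.6% with cells thinned to 1000 UMIs. The tenth of cells with the most Aqp5 held 66.7% of the UMIs of the class, 627 cells had 10 or more, and the highest cell had 587. In capillary cells, which should lack Aqp5, 0.0739% of 8121 cells had a UMI at a median depth of 3001 UMIs, or 0.0246% after thinning. In fibroblast-like cells thinned to 1000 UMIs, those with an Esr1 UMI had an Aqp5 UMI more often than those without in 6 of 6 mice, at 12.8% against 3.78% in Arom 1, 23.2% against 5.78% in Arom 2 and 4.80% against 1.13% in Arom 3. In WT mice the shares were 1.97%, 6.67% and 1.85% with Esr1, on 3, 7 and 1 cells, and 0.199% to 0.616% without. Esr1 defines the class in which Aqp5 was found, so this is a description. Cells of the class with UMIs of both water channels numbered 103, 112 and 26 in Arom 1 to 3, where 94.4, 116 and 31.2 would be met if the genes fell in cells independently.

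Markers of other cell types were low in the Esr1-high fibroblasts of Arom mice. The 7 endothelial markers summed to 13.8 to 25.3 CPM, 4 skeletal fibre genes (Acta1, Ckm, Mylpf, Tnnt3) to 18.8 to 29.2 CPM and 5 red blood cell genes to 7.01 to 128 CPM. The 7 epithelial genes in the table summed to 6.96 to 21.2 CPM, with Krt18 the highest at 6.26 CPM over the class, Epcam at 0.782 CPM and Cdh1 at 0.0145 CPM. The part of epithelial RNA in the Aqp5 level was not tested.

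At resolution 0.8 the Angptl1 Prg4 fibroblasts held most of the Aqp5 of WT mice, on average 74.4% of the UMIs of a mouse, while the Esr1-high fibroblasts held on average 84.6% in Arom mice. This place in WT mice depended on the clustering. Of the 120, 618 and 124 Aqp5 UMIs of WT 1 to 3, the Esr1-high class held 92, 496 and 96 at resolution 1.2 and 93, 556 and 111 with column runs. The Angptl1 Prg4 class, whose cells carry Prg4, the gene for lubricin of tendon sheath and joint surfaces, had 11.3, 126 and 25.8 CPM of Aqp5 in WT 1 to 3 and 8.20, 49.8 and 62.7 CPM in Arom 1 to 3. The genotypes overlapped, and WT 2 was the highest of the 6 mice. A UMI was found in 9.69% of its 1879 cells, or 4.95% to 19.3% per mouse. Pnoc, a marker of the Esr1-high class, stood at 6621, 3862 and 4971 CPM in the WT cells of the Angptl1 Prg4 class. Esr1 stood at 119 CPM and Moxd1 at 374 CPM in this class, against 205 and 509 CPM in the Esr1-high fibroblasts. The 2 classes thus shared markers. At resolution 0.8 the Angptl1 Prg4 class took in WT cells that resolution 1.2 and column runs named Esr1-high. The Angptl1 Prg4 fibroblasts were 14.6% to 20.8% of fibroblast-like cells in WT mice and 2.11%, 2.49% and 7.83% in Arom 1 to 3.

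Tenocytes, the cells of tendon, showed Aqp5 in some mice only. They had 7.98, 0 and 0.626 CPM in WT 1 to 3 and 160, 31.9 and 0.916 CPM in Arom 1 to 3, so Arom 3 lay among the WT mice. The UMIs of Arom mice sat mainly in the subcluster led by Chodl, Cilp2 and Scx, with 273, 51.9 and 1.70 CPM. Mesothelial cells had 1.37, 13.3 and 0 CPM in WT and 16.4, 18.2 and 4.69 CPM in Arom mice, with overlap. T cells, myonuclei and lymphatic cells reached 38.3, 35.7 and 28.3 CPM in Arom 2, where each other mouse had at most 15.3 CPM. Over the 15 named classes with 6 mice, the Arom mean of Aqp5 was higher in 13 and lower in 1. The Arom mice lay above the WT mice without overlap in 4 classes, Tppp3 fibroblasts, Dmkn fibroblasts, muscle stem cells and venular cells, where means in Arom mice were 0.706 to 1.74 CPM. Such a position held for 13.5%, 10.4%, 14.1% and 17.6% of genes with at least 10 UMIs in the class. Aqp5 fell under that limit in muscle stem cells, with 6 UMIs, and in venular cells. Levels as low as in these 4 classes are near those of capillary cells, at 1.64, 1.66 and 0 CPM in Arom mice and 0 UMIs in each WT mouse, and the part of free RNA in them was not tested.

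Over 109 sums by mouse and class, from 20 classes, the genes whose log2(CPM + 1) followed that of Aqp1 most closely among 15677 genes were Gpihbp1 (Pearson's r = 0.87), Cd300lg (0.87), Adgrl4 (0.86), Robo4 (0.86) and Emcn (0.86), all known from endothelium. For Aqp5 they were Hoxd11 (r = 0.80), a homeobox gene of the posterior body, Pgr (0.78), Pnoc (0.76), Cacna2d3 (0.76), a calcium channel subunit, and Greb1 (0.76). The value between Aqp1 and Aqp5 was -0.19. The sums share mice and libraries. Gpihbp1, Cd300lg and Emcn were among the markers that named endothelial classes, and Pnoc is a marker of the class that held most Aqp5. These values are therefore descriptions. The letters GGTCA were in each of the 2 windows of Greb1 and had 0 matches in those of Hoxd11, Pgr and Cacna2d3.

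The other aquaporins were found in various classes. Aqp7 was an endothelial gene like Aqp1, but its second vessel was the artery and not the venule. It had 141, 213 and 154 CPM in WT and 142, 127 and 146 CPM in Arom capillary cells, 78.4, 123 and 86.9 CPM in WT and 42.6, 62.3 and 42.3 CPM in Arom arterial cells, and 15 to 32.9 and 4.48 to 10.8 CPM in venular cells. Aqp2, the channel of the kidney collecting duct, reached 48.2, 19.3 and 23.2 CPM in WT and 2.98, 17 and 9.63 CPM in Arom mice in a cluster left without a name that was led by Sfrp5, Lypd2 and Cldn1. Of its 1000 UMIs that cluster held 99. The Esr1-high fibroblasts held 498, at 2.44 CPM in WT 1 and 8.60, 8.18 and 2.36 CPM in Arom 1 to 3. Aqp9, an aquaglyceroporin of leukocytes, was highest at 12.5 CPM in an unnamed cluster led by Lyz1, Clec4e and Cd14. Aqp3 had 70 UMIs in all, 42.9% of them in T cells, and Aqp4, the water channel of muscle fibre and astrocyte membranes, had 50 UMIs, 88.0% of them in myonuclei. Aqp11, which resides in the endoplasmic reticulum, had 889 UMIs, of which the class with most held 18.1%.

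Tests between genotypes were run on UMI sums per mouse for genes other than the pair, with edgeR's quasi-likelihood test, and a gene was called at a Benjamini-Hochberg adjusted p below 0.05 over all genes of the class. In blood endothelial cells 1884 of 11994 genes (15.7%) were called, 1030 higher (8.59%) and 854 lower (7.12%) in Arom mice. Leaving out 1 mouse gave 1529 without WT 1, 714 without WT 2, 1325 without WT 3, 555 without Arom 1, 887 without Arom 2 and 1881 without Arom 3. With mice of equal number paired, 2967 were called (24.7%).

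Of the aquaporins tested in endothelium, Aqp7 fell. It stood at 91.5, 161 and 106 CPM over tested genes in WT 1 to 3 and 38.3, 53.2 and 57.0 in Arom 1 to 3. It had a log2 difference of -1.26 (SE 0.21, adjusted p = 0.00669 by edgeR). It remained called under each of 16 alternatives, with a log2 difference of -1.40 to -0.89. Within classes the Arom mice lay below the WT mice in arterial cells, as did 9.21% of genes there, and in venular cells, as did 5.78% there, and overlapped with them in capillary cells, the class with most of its UMIs. The arterial class was not made of the same clusters in both genotypes: its subcluster led by Alpl and Hey1 held 166, 255 and 246 of the 347, 433 and 484 arterial cells of WT mice and 76, 56 and 98 of the 260, 156 and 310 of Arom mice, and that led by Gja4 and Sema3g had at least 20 cells in WT mice alone. The lower share of capillary cells in Arom endothelium, given above, moved with this result, and its part was not tested. Aqp11, at 3.58 and 4.27 CPM over tested genes in the genotype means, was not called.

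Genes listed for ion and water transport changed in both directions in endothelium. The gene lists here and below were chosen with earlier results of these data known, so their counts are descriptions. Of 29 tested genes of ion and water transport, 7 were called higher and 8 lower, where 8.59% and 7.12% of all genes were, with a median log2 difference of 0.20 against -0.02 over all genes tested. With mice of equal number paired, 10 were called higher and 9 lower, where 24.7% of all genes were called. The 15 calls became 4 without Arom 1, 5 without WT 2, 8 without Arom 2 and 11 to 13 without WT 1, WT 3 or Arom 3. Over all genes tested, 335 were called higher and 220 lower of 12328 without Arom 1, 399 and 315 of 12190 without WT 2, and 527 and 360 of 12300 without Arom 2. Without WT 1 they were 903 and 626 of 12356, without WT 3 727 and 598 of 12228, and without Arom 3 1055 and 826 of 12264. Slc12a2, the cotransporter that loads cells with sodium, potassium and chloride, rose (log2 1.68, SE 0.30, adjusted p = 0.00816 by edgeR). It went from 37.9 to 122 CPM over tested genes. Its values in venular cells were 50.6, 53.3 and 52.0 CPM in WT mice and 199, 249 and 84.6 CPM in Arom mice. In capillary cells they were 33.4, 28.9 and 32.8 CPM in WT and 36.6, 53.7 and 30.5 CPM in Arom mice. The genotypes overlapped there and in arterial cells. Atp1b3, the β3 subunit of the sodium pump, rose by a log2 difference of 0.68 (SE 0.13). Its WT and Arom means were 377 and 400 CPM in venular cells, with overlap. They were 106 and 123 CPM in capillary and 213 and 288 CPM in arterial cells, without overlap, as for 9.72% and 9.57% of genes there. The part of the higher venular share of Arom endothelium in the Slc12a2 and Atp1b3 differences was not tested. Fxyd5, a regulator of the pump, rose by a log2 difference of 0.82 (SE 0.16). Fxyd5 was also higher without overlap in each of the capillary, venular and arterial classes, a position that 9.72%, 17.6% and 9.57% of their genes had. Car4, a carbonic anhydrase on the capillary surface and one of the markers that named the capillary class, fell (log2 -1.50, SE 0.27, adjusted p = 0.00786 by edgeR), but within capillary cells its values, 134, 188 and 100 CPM in WT and 90.1, 113 and 97.4 CPM in Arom mice, overlapped. Car2, a cytosolic carbonic anhydrase, rose by a log2 difference of 4.26 (SE 0.92). Its CPM over tested genes was 22.3 and 11.1 in Arom 1 and Arom 2 and 0.993 in Arom 3, close to 0.962 in WT 1. Its call was lost under 3 of 15 alternatives. Venular cells held 278 of its UMIs, against 14 in capillary and 10 in arterial cells. Its venular values were 2.59, 0.417 and 0.263 CPM in WT and 33.6, 18.9 and 2.02 CPM in Arom mice. The genotypes overlapped in the venular, capillary and arterial classes. The part of the higher venular share in the Car2 difference was not tested.

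Of 9 tested genes of the response to osmotic stress, 1 was called higher and 1 lower in endothelium, where 15.7% of all genes were called. With mice paired, 2 were called higher and 3 lower. Hspa4l, a heat shock protein of the HSP110 family, rose from 19.1 to 51.8 CPM over tested genes (log2 1.43, SE 0.29). Its call was lost under 2 of 16 alternatives, without WT 2 and under the upper limits on genes and mitochondrial UMIs. Without WT 2 the list had 0 calls higher and 2 lower, with 4 of 9 genes below an unadjusted p of 0.05, under those limits 0 higher and 2 lower with 3 of 9 below it, and without WT 1 it had 2 higher and 1 lower. Hspa1b, an inducible HSP70 that also answers heat and handling of cells, fell (log2 -1.81, SE 0.14, adjusted p = 0.000642 by edgeR). It went from 322 to 91.9 CPM over tested genes. Within capillary cells it was at 455 to 461 CPM in WT and 189 to 234 CPM in Arom mice, and 7.94% of genes there were lower without overlap. The capillary subcluster led by Hspa1a, Timp4, Car4 and Hspa1b held 847, 968 and 765 of the 1795, 2309 and 1864 capillary cells of WT mice and 217, 184 and 290 of the 627, 709 and 817 of Arom mice, and its part in the Hspa1b level was not tested. Of 13 tested genes that anchor or move water channels in membranes, 2 were called higher, a share near the 15.7% of all genes, with a median log2 difference of 0.23, and none lower by edgeR, with 5 below an unadjusted p of 0.05 and, by DESeq2, 1 called higher. With mice paired, and without WT 1, edgeR called 2 anchor genes higher and 1 lower, and the 2 calls became 0 without Arom 1, WT 2 or WT 3. Over all genes tested, edgeR called 903 higher and 626 lower of 12356 without WT 1 and 399 and 315 of 12190 without WT 2. Under the upper limits it called 508 and 327 of 10038. DESeq2 called 1049 and 656 of 12242, and 24.7% of genes were called with mice paired.

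**Figure D5:**
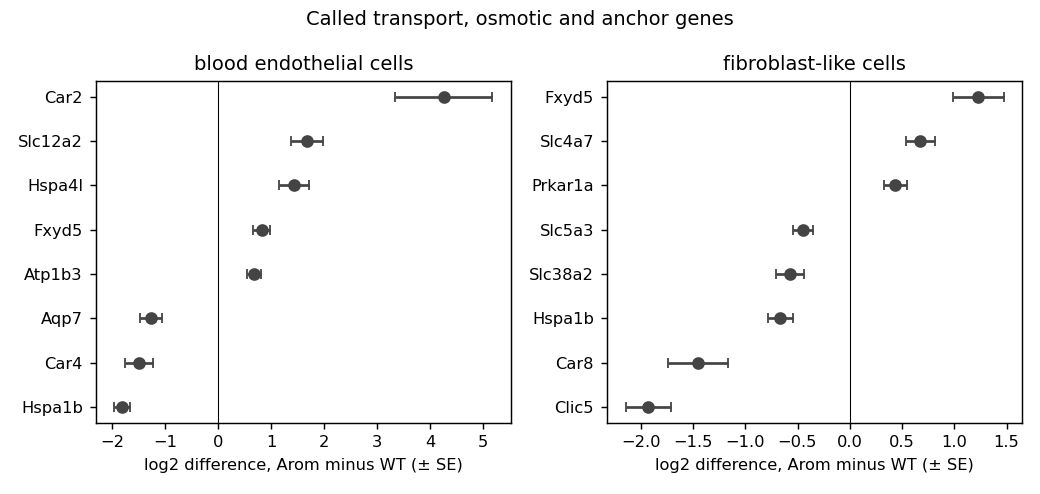
Log2 difference, Arom minus WT, with its SE (n = 3 mice per genotype, edgeR) of called transport, osmotic and anchor genes named in the text for blood endothelial cells (left, with Aqp7) and fibroblast-like cells (right). Hspa1b and Clic5 have the lowest values, -1.81 and -1.93, and Car2 and Fxyd5 the highest, 4.26 and 1.23.

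In fibroblast-like cells 1792 of 13874 genes (12.9%) were called, 1035 higher (7.46%) and 757 lower (5.46%) in Arom mice. This count depended on single mice: it was 124 without WT 1, 6 without WT 2, 5 without WT 3, 2 without Arom 1, 10 without Arom 2 and 4117 without Arom 3. Of 28 tested genes of ion and water transport, 2 were called in each direction, a share near the 12.9% of all genes, with a median log2 difference of -0.10 against 0.01 over all genes. Fxyd5 rose here as well (log2 1.23, SE 0.24, adjusted p = 0.0283 by edgeR), from 196 to 461 CPM over tested genes. In the Esr1-high fibroblasts it was at 515 CPM in WT 1 and 711, 570 and 714 CPM in Arom 1 to 3. Without overlap, Arom mice were higher in Dmkn fibroblasts (means 98.4 and 282 CPM), as for 10.4% of genes there. They were lower in Angptl1 Prg4 fibroblasts (means 329 and 229 CPM), as for 8.83%. That class took in WT cells that other groupings named Esr1-high. The genotypes overlapped in Tppp3 fibroblasts and tenocytes. The part of the larger Esr1-high share in this rise was not tested. Slc4a7, a sodium bicarbonate cotransporter, rose by a log2 difference of 0.67 (SE 0.14). Clic5, a chloride intracellular channel protein, fell (log2 -1.93, SE 0.22, adjusted p = 0.0154 by edgeR), and so did Car8, a carbonic anhydrase relative, by a log2 difference of -1.45 (SE 0.29). With Arom 3 left out 9 genes of the list were called, where 4117 of all 13945 genes were. Without WT 1 there was 1 call, where 124 of 14493 genes were called. Without any of the other 4 mice there were 0, with 7 to 10 below an unadjusted p of 0.05. Clic5 and Car8 were highest in Dmkn fibroblasts, where Car8 stood at 64.9, 93.3 and 82.6 CPM in WT and 18.2, 20.1 and 46.6 CPM in Arom mice, without overlap, as for 7.80% of genes there. The Dmkn class differed in its clusters too: the subcluster led by Dmkn, Krt23 and Sbsn had 455 and 1009 cells in Arom 1 and Arom 2 and under 20 in each other mouse, and Car8 was among the genes that led another of its subclusters. Aqp2, Aqp7 and Aqp11 were tested in these cells and not called by edgeR (adjusted p = 0.448, 0.168 and 0.425), nor by DESeq2. With cells grouped by column runs, edgeR called an aquaporin besides the pair lower, where 862 of 13997 genes were called lower.

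Of 10 tested osmotic response genes in fibroblast-like cells, 3 were called lower and none higher, where 5.46% and 7.46% of all genes were, with 5 below an unadjusted p of 0.05. DESeq2 called 2 higher and 3 lower, where 1548 and 1261 of 15410 genes were. The 3 lower by edgeR were Slc5a3, which imports the osmolyte myo-inositol (log2 -0.45, SE 0.09), the amino acid importer Slc38a2 (log2 -0.58, SE 0.13) and Hspa1b (log2 -0.67, SE 0.12). With 1 mouse left out, the osmotic list had 5 calls without Arom 3, where 4117 of 13945 genes were called, and 0 without any of the other 5 mice. Of 14 anchor genes, 1 was called, a share below the 12.9% of all genes. It was Prkar1a, a regulatory subunit of protein kinase A, which rose by a log2 difference of 0.43 (SE 0.11). The 8 calls named for fibroblast-like cells kept their sign under each of 16 alternatives but not their side of the threshold, and each was lost under 5 to 9 of them.

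In the Esr1-high fibroblasts, with 36 WT cells in all, 3 of 10936 genes were called (0.0274%), 2 higher (0.0183%) and 1 lower (0.00914%), and 1323 had an unadjusted p below 0.05. No gene of the ion transport, osmotic and anchor lists was called by edgeR, with 0 of 22 ion transport genes, 1 of 9 osmotic genes and 3 of 12 anchor genes below an unadjusted p of 0.05. By DESeq2, and by edgeR without Arom 3, 1 osmotic gene was called higher, where 71 of 12069 and 85 of 5239 genes were. With the larger WT group of resolution 1.2, edgeR called 2 higher and 3 lower of 28 ion transport genes and 1 higher and 1 lower of 9 osmotic genes, where 1443 of all genes (12%) were called. With column runs it called 2 higher and 4 lower of 28, 1 higher and 2 lower of 9 and 1 lower of 12 anchor genes, where 1705 of all genes (14%) were. In simulated sums of this class, drawn without scatter of single genes or an outlying mouse, the test recovered 11.0% of genes changed 2-fold and 61.0% of genes changed 4-fold.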

How the data were processed

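LAM tissue was minced, digested with collagenase II and dispase II, filtered at 40 µm and freed of red blood cells before droplet capture (10x Genomics), with 1 library from each of 6 mice. The authors aligned reads to mm10 with CYP19A1 added, using Cell Ranger 3.0.2, and deposited UMI counts per gene and cell as whole numbers, not normalised. All 63647 barcodes were mapped to mice by their column labels. The study's upper limits (2500 genes, 5% mitochondrial UMIs) had not been applied to the deposited table and were kept as an alternative.

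Barcodes with at least 200 genes and 1000 UMIs were kept. Counts were scaled to 10000 per cell and log transformed. Cells were clustered with scanpy 1.11.5 (1994 variable genes, 30 principal components, 20 neighbours, Leiden resolution 0.8, leidenalg 0.10.2), and large groups were clustered again. Clusters took the name of the marker list with the highest score. The score limits (1 and 0.5), the limit for mixed markers (15% of the level in the other type) and the rule that left a subcluster unnamed when another class had more markers among its top 10 genes were set after seeing the data. Doublets were scored with Scrublet and kept, 1.15% to 2.92% of cells per mouse. In WT 3 its automatic threshold marked 0 cells, and the median of the other thresholds was used. UMIs were summed per mouse and class. edgeR 4.0.16 (TMM, filterByExpr, quasi-likelihood F-test, R 4.3.3) compared 3 Arom with 3 WT mice, with DESeq2 1.42.0 as an alternative. CPM over tested genes uses the UMI totals of the genes tested in the class, without the TMM factors. Tested on simulated sums, edgeR recovered 61.0% of genes changed 2-fold and 96.0% of those changed 4-fold in fibroblast-like cells, and 77.0% and 97.0% in blood endothelial cells. The simulated sums took the dispersion from its trend with expression, with no scatter of single genes and no outlying mouse. The rates thus hold for a simpler setting than the data.

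Total depth was 64658769 to 111263527 UMIs per mouse. Per the methods of the study, 1 WT and 1 Arom littermate were processed on each of 3 dates. The labels do not tie numbers to dates. In blood endothelial cells, mice of equal number deviated from their group means together (r = 0.25, 0.15 and 0.33 across genes), each above the limit of 0.1 set for pairing, so the paired fit is given beside those counts. In fibroblast-like cells (0.21, -0.13, 0.17) and Esr1-high fibroblasts (0.098, 0.016, 0.065) not every pair passed that limit. Aqp1, Aqp5, the gene lists and the tests were chosen with earlier results of these data known. Named genes are the pair, the aquaporins with a UMI, the markers, up to 8 called genes of the transport, osmotic and anchor lists per class with the lowest p, and the 5 genes most correlated with each of the pair. A gene that this rule also picked is not reported here. Promoter windows and gene positions are from RefSeq (GRCm38.p6), transcripts from GENCODE.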

Additional observations from a re-analysis of the deposited data

Results flagged for a closer look

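Aqp5 UMIs were also found outside the cell classes compared, in barcodes that were left out and in mixed or unnamed clusters that entered only the sums over all cells. Barcodes under the lower limits on genes or UMIs held 7, 5 and 1 Aqp5 UMIs in Arom 1 to 3, a mean of 8.48 CPM, and 0 in each WT mouse. Mixed clusters had 40.9, 53.9 and 4.26 CPM in Arom 1 to 3, a mean of 33.0 CPM, and 0.598 to 0.916 CPM in WT mice. The unnamed cluster led by Lyz1, Clec4e and Cd14 had 8.24, 45.6 and 5.35 CPM, a mean of 19.7 CPM, and 0 in each WT mouse, although WT mice gave 85 to 214 cells of it against 187 to 1197 in Arom mice. That led by Prm1, Tnp2 and Prm2 had 24.6, 43.9 and 14.8 CPM in Arom 1 to 3, on 4, 7 and 2 UMIs, and 0 UMIs in each WT mouse, which had 21 to 44 cells of it. The unnamed cluster led by Sfrp5, Lypd2 and Cldn1 went the other way in the mean, with 8.76, 4.83 and 8.52 CPM in WT 1 to 3 and 1.49, 8.49 and 3.85 CPM in Arom 1 to 3, on 1 to 11 UMIs per mouse and with overlap. In the barcodes under the limits, Aqp1 was at 1461 to 2161 CPM in WT and 1247 to 1430 CPM in Arom mice.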

How the results depend on the processing

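The log2 difference of Aqp1 in blood endothelial cells and of Aqp5 in fibroblast-like cells and Esr1-high fibroblasts kept its sign under every alternative run. It moved by less than the pooled SD between mice of a genotype, taken on log2(CPM + 1). This SD was 0.149 for Aqp1, and for Aqp5 1.35 in fibroblast-like cells and 1.59 in Esr1-high fibroblasts. The last is a wide limit, since its WT values rest on 3, 6 and 12 UMIs. That of Aqp5 in Esr1-high fibroblasts was 1.92 with cells grouped by the 30 runs of columns in the table, which brought 172 to 483 WT cells per mouse into the class. No value could be had for Esr1-high fibroblasts under the upper limits on genes and mitochondrial UMIs, since a mouse was left without cells. Counts of called genes moved more. In fibroblast-like cells 2809 were called with DESeq2 and 1 under the upper limits, and 2 to 4117 with each mouse left out. In Esr1-high fibroblasts the 3 calls became 0 with RLE size factors, 0 with every gene that had 1 UMI, 228 with DESeq2, 387 with the replicate block (with 1 osmotic gene among them), 9 at resolution 0.4, 1443 at resolution 1.2 and 1705 with column runs, and 0 to 173 with each mouse left out. The median log2 difference over all genes of that class was 0.13 with TMM, 0.06 with RLE and -0.16 with DESeq2. In blood endothelial cells 2967 were called with the replicate block and 835 under the upper limits, and 555 to 1881 with each mouse left out. The replicate block gave 1381 calls in fibroblast-like cells, where numbers did not pair the mice by the check. The cause of these moves was not tested. Thinning cells to 1000 UMIs lowered the shares of cells with a UMI as given above. Column runs, kept mixed clusters and the resolutions for the counts were added after seeing the data. With 3 mice per genotype and 36 WT cells in the Esr1-high class, counting error alone leaves its WT level uncertain. The p-values set the genotype difference against the variation between these mice, counting error included.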
